A study of Saccharomyces cerevisiae with 21 samples.

Results

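Small nucleolar RNAs (snoRNAs) and spliceosomal small nuclear RNAs (snRNAs) of Saccharomyces cerevisiae were followed through a 15-day wine fermentation. They were taken as the genes whose symbol starts with SNR and a number, and 61 of the 5656 genes measured met this rule. Each was read on the probe set annotated to it alone, and where a gene had several such probe sets, the one whose mean over the 21 arrays was highest was used. By class, 40 encode box C/D snoRNAs, 17 encode box H/ACA snoRNAs and 4 encode spliceosomal RNAs, and the RefSeq annotation lists the first 57 as snoRNA and the other 4 as snRNA. Another 20 SNR genes of that annotation had no probe set of their own in the annotation used and were not analysed here, among them SNR17B, SNR10 and SNR30, nor was the U2 gene, LSR1. Levels entered the choice only between probe sets of one gene, which concerns SNR39B and SNR62.

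Total RNA was hybridised to 21 one-colour Affymetrix arrays, 3 for each of 7 times of harvest, from separate biological replicates. The times were 1, 12, 24, 48, 60, 120 and 340 h. The main study is the 5 times from 24 h on, for which the submitters give rough ethanol levels: 0.5% for 24 h and 2% for 48 h, then 3.5% for 60 h and 7% for 120 h, and 10% at the end. The groups differ in time alone as far as the labels say: no mutant, added agent or untreated culture stands beside them, and the strain and medium are not given. Time, ethanol, sugar and growth phase therefore cannot be told apart. Values are log2 probe set summaries after RMA, a normalization that gives all arrays processed together the same distribution, so a change in the RNA content of the cells is not visible on it, and fewer cells that express a gene cannot be told from less RNA per cell. A level can be compared between times for one gene, but not between genes.

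Most snoRNAs pair with ribosomal RNA and direct an enzyme to particular nucleotides of it. Box C/D snoRNAs guide methylation of the ribose with NOP1 (fibrillarin), NOP56, NOP58 and SNU13, and box H/ACA snoRNAs guide conversion of uridine to pseudouridine with CBF5, NHP2, NOP10 and GAR1. A few, such as U3 (SNR17A) and U14 (SNR128), are needed to cut the ribosomal precursor, and the spliceosomal RNAs U1 (SNR19), U4 (SNR14), U5 (SNR7-L) and U6 (SNR6) form the core of the machine that removes introns. Most of these RNAs end without a long poly(A) tail when mature, whereas their longer precursors can carry one for a short time on the way to trimming or decay. The primer of the cDNA reaction is not given in the sources used here, and whether a probe set read the mature RNA or a longer form was not tested.

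Ribosomal RNA is another RNA without a long poly(A) tail, and its 10 control probe sets differed widely between arrays of one time. The mean of these controls was 9.14 to 9.51 on the arrays of 1 h and 8.84 to 9.60 on those of 12 h. It was 9.36 on replicate 3 of 24 h against 6.77 and 6.91 on its fellow arrays, and 9.41 on replicate 3 of 120 h against 6.94 and 7.11. Replicate 3 of 48 h read 8.42 against 6.24 and 7.51, the 3 arrays of 60 h read 6.07 to 6.91, and those of 340 h read 11.75, 9.89 and 11.63. The controls thus set single arrays of 24, 120 and 340 h apart from the others of their time, and at 48 h all 3 arrays differed. As a group, the arrays of 340 h read highest and those of 60 h lowest. The median over the 61 RNAs of their group means was likewise lowest at 60 h (4.93) and highest at 340 h (7.86). Whether the changes of the RNAs and of the controls share a cause was not tested. The median of all genes on an array stayed between 6.62 and 6.90. Of the 61 RNAs, 37 were highest on replicate 3 among the arrays of 24 h, against 39.5% of all genes, and 30 were highest on replicate 3 among those of 120 h, against 38.9%. The median of the 61 RNAs was 7.51, 8.27 and 7.88 on the arrays of 340 h, highest on the array with the lowest ribosomal controls of that time. That array also had the highest C/D median (7.85 against 7.15 and 7.79). It had the lowest H/ACA median (7.85 against 8.18 and 7.89) and the lowest spliceosomal median (11.25 against 11.30 and 11.41).

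**Figure D1:**
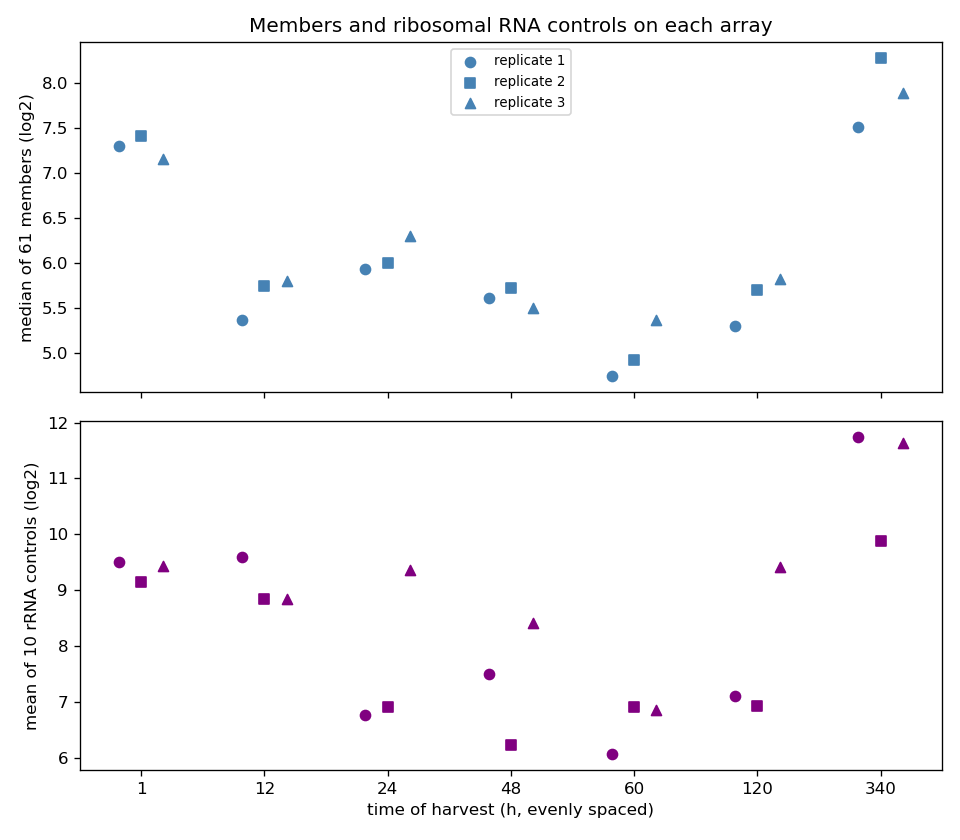
Each point is one array, by time of harvest in hours on an evenly spaced axis: above, the median log2 signal of the 61 RNAs, and below, the mean log2 signal of the 10 ribosomal RNA control probe sets. The controls are high at 1 and 12 h and on replicate 3 of 24, 48 and 120 h, highest at 340 h and low on all arrays of 60 h. The median of the RNAs is high at 1 and 340 h only and is low at 60 h too.

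The 61 RNAs shared a course through the fermentation: high at 1 h, lower from 12 h, lowest at 60 h and high again at 340 h. The median over the RNAs of their group means was 7.18 at 1 h and dropped to 5.58 at 12 h and 6.05 at 24 h. It was 5.61 at 48 h, reached its lowest value of 4.93 at 60 h, and was 5.72 at 120 h and 7.86 at 340 h. For 43 of the 61 RNAs the lowest of the 7 group means was that of 60 h, for 9 that of 120 h, for 5 that of 12 h, for 3 that of 48 h and for 1 that of 340 h. Over all genes the lowest was that of 60 h for 7.48%. The highest was that of 340 h for 36 and that of 1 h for the other 25, against 19.4% and 31.7% of all genes. In limma's F test over the 7 times 60 of 61 passed, and so did 89.2% of all genes. SNR62, a C/D RNA, was the exception, with an adjusted p of 0.161. The name of its probe set ends in _r_at rather than in _at alone.

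**Figure D2:**
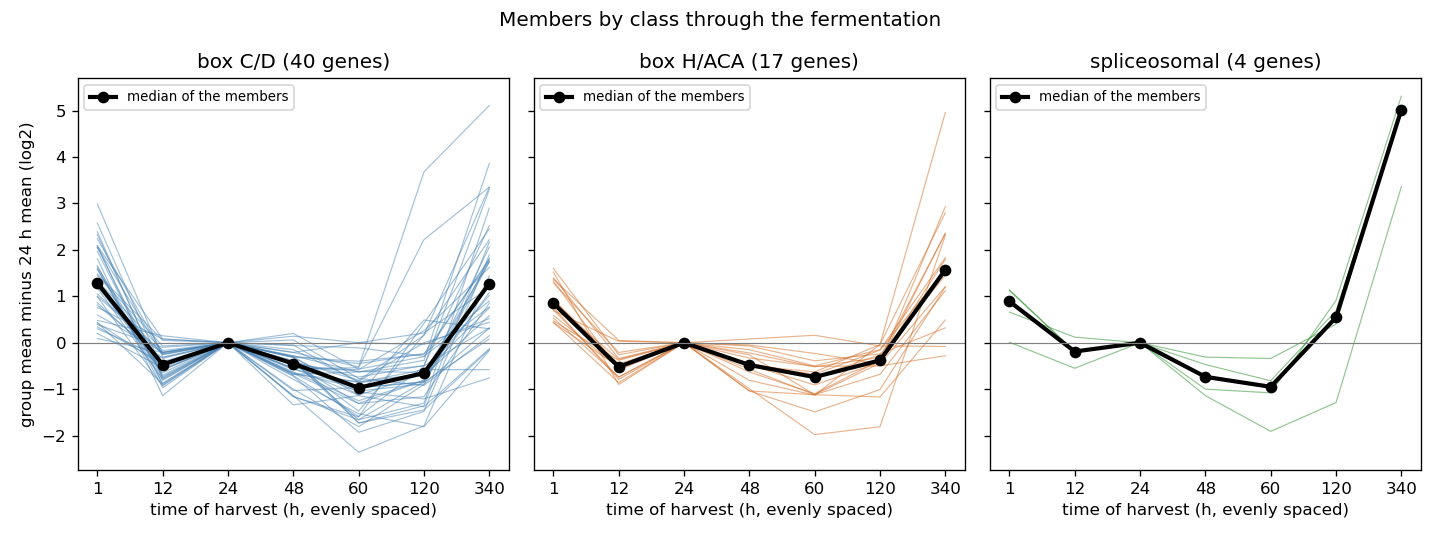
Each thin line is one gene, drawn as its group mean minus its 24 h mean in log2 units against the time of harvest in hours on an evenly spaced axis, with 1 panel for each class and the median of the class in black. All 3 medians are lowest at 60 h and high at 1 h and 340 h, and the 4 spliceosomal RNAs end at a median of 5.02 above 24 h, against 1.27 for C/D and 1.57 for H/ACA RNAs.

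Between 1 h and 12 h, 55 of the 61 RNAs fell and none rose at an adjusted p under 0.05 in limma, while 33.9% of all genes fell and 26.0% rose. By class, 35 of 40 C/D, 17 of 17 H/ACA and 3 of 4 spliceosomal RNAs fell. The median change was -1.48, against -0.11 for all genes, and 47 RNAs fell at least 2-fold, which 16.1% of all genes did. SNR76, a C/D RNA cut from a precursor of 7 snoRNAs, read 9.73, 9.94 and 9.25 at 1 h and 6.23, 6.12 and 6.69 at 12 h, which is 9.84-fold lower (log2 -3.30 ± 0.34 SE, adjusted p = 2.83e-08). SNR63, a C/D RNA with a gene of its own, read 8.37, 8.33 and 8.34 at 1 h and 4.99, 5.02 and 5.53 at 12 h (log2 -3.16 ± 0.29 SE). In both the arrays of the 2 times lay more than 2 log2 units apart. SNR75 (-3.16), SNR57 (-3.06) and SNR64 (-3.00), which are C/D RNAs too, complete the 5 largest falls. The 6 RNAs that did not pass were SNR52 (-0.68), SNR74 (-0.62), SNR6 (-0.57), SNR65 (-0.49), SNR62 (-0.33) and SNR190 (-0.30). The ribosomal controls read 9.14 to 9.51 at 1 h and 8.84 to 9.60 at 12 h. The cause of the fall was not tested.

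From 12 h to 24 h the values went up a little and few passed. Of the 61 RNAs 5 rose and none fell, against 0.796% and 1.27% of all genes, with a median change of 0.46. They were SNR39B (1.14), SNR64 (0.91), SNR35 (0.90), SNR5 (0.86) and SNR9 (0.79), of which the last 3 are H/ACA RNAs. The signal of SNR64 was low at both times, with group means of 3.08 and 3.99. The arrays did not overlap in 29 of 61, all with 24 h above 12 h, which holds for 11.4% of all genes. Leaving out single arrays left 1 to 3 calls, with 1 each without replicate 1 of 12 h or replicate 2 of 24 h, 2 without replicate 1 of 24 h and 3 without each of the others. With the third arrays of 24, 48 and 120 h left out together, 3 passed. None was called when the arrays were centred on 5 reference genes.

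After 24 h most RNAs went down again until 60 h. At 48 h 16 of 61 were lower than at 24 h and none was higher, against 8.42% and 12.8% of all genes, with a median change of -0.46. At 60 h 43 were lower and none was higher, against 20.8% and 22.6%, with a median change of -0.91 against 0.01 for all genes. These were 28 of 40 C/D, 12 of 17 H/ACA and 3 of 4 spliceosomal RNAs. Without the third arrays of 24, 48 and 120 h, whose ribosomal controls were the highest of their time, 12 were lower at 48 h and 40 at 60 h. The largest falls to 60 h were those of SNR52 (-2.36), a C/D RNA made by RNA polymerase III, SNR44 (-1.98), an H/ACA RNA from an intron, SNR77 (-1.93), SNR6 (-1.91) and SNR71 (-1.81). SNR52 read 5.30, 6.29 and 7.68 at 24 h and 3.73, 4.16 and 4.31 at 60 h, so that the arrays at 24 h were far apart but all above those of 60 h (5.13-fold, SE 0.42 log2, adjusted p = 0.000195). SNR44 was less scattered, with 9.34, 8.98 and 9.13 at 24 h and 7.17, 7.03 and 7.32 at 60 h.

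The falls to 48 h that were largest belonged to SNR54 (-1.34), SNR38 (-1.16), SNR56 (-1.16), SNR6 (-1.14) and SNR46 (-1.04). SNR54 and SNR38 are C/D RNAs cut from introns, and SNR46 is an H/ACA RNA. SNR54 lay below the array's lower quartile on 13 of the 21 arrays, so the size of its fall is uncertain. The step from 48 h to 60 h gave 9 of 61 lower and none higher, against 4.60% and 3.48% of all genes, and the largest falls that passed were those of SNR75 (-1.34), SNR76 (-1.26) and SNR77 (-1.21) of the 7-snoRNA precursor. That count was 2 without replicate 1 of 60 h or without replicate 3 of 48 h, 4 without replicate 2 of 60 h and 5 without replicate 2 of 48 h. The fall of SNR56 to 48 h no longer passed without replicate 2 of 48 h (-1.08), replicate 3 of 48 h (-1.11) or replicate 3 of 24 h (-0.90).

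By 120 h the RNAs had parted. Against 24 h 27 of 61 were still lower and 4 were higher, and 26.6% of all genes passed in each direction. The 4 that were higher were the C/D RNAs SNR45 (3.68) and SNR13 (2.21) and the spliceosomal RNAs SNR19 (0.91) and SNR14 (0.69). Lowest against 24 h were SNR39 (-1.81), SNR44 (-1.80), SNR52 (-1.79), SNR77 (-1.48) and SNR72 (-1.45). Without the third arrays of 24, 48 and 120 h 4 were higher and 23 lower. The 31 calls became 20 without replicate 1 of 120 h, and when the arrays were centred on the 5 reference genes 10 RNAs were higher and 8 lower. That centring moves the median of all genes by 0.53 in this comparison.

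Seen from 60 h, 13 of 61 were higher at 120 h and none was lower, against 4.60% and 4.95% of all genes. SNR45, which with SNR4 guides acetylation rather than methylation of the small-subunit ribosomal RNA, had the largest change. It read 5.04, 6.27 and 8.04 at 60 h and 10.16, 10.58 and 11.19 at 120 h, and although its arrays at 60 h spread over 3 log2 units, all lay below those of 120 h (18.3-fold, log2 4.20 ± 0.47 SE, adjusted p = 2.92e-05). SNR13, a C/D methylation guide, read 7.93, 8.33 and 8.93 at 60 h and 10.61, 11.02 and 11.84 at 120 h, a rise of 6.76-fold with no overlap. SNR56 (2.02), SNR19 (1.99) and SNR41 (1.64) followed, and at least 4-fold rises were seen in 3 of the 61 RNAs and 0.0707% of all genes. SNR4, the other acetylation guide, changed by 0.25 ± 0.19 SE in the same step and did not pass. Samples with the same replicate number deviated together at 60 h and 120 h, and with the number as a block 20 RNAs passed. The third arrays left out, 11 did. Without replicate 3 of 120 h 8 passed and without replicate 1 of 60 h 6 did, and in both of these SNR41 was at 1.15 and no longer passed.

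The last interval, from 120 h to 340 h, held the largest rises. Here 55 of 61 RNAs rose and none fell, while 15.9% of all genes rose and 26.6% fell. The median change was 1.98 against -0.17 for all genes. At least 4-fold rises were found in 30 of the 61 RNAs (49.2%) and in 1.57% of all genes, so that these RNAs made up 33.7% of the 89 genes with such a rise. Of the 10 genes with the largest change among all 5656, 8 were SNR genes, and of the first 100 genes 31 were. By class 36 of 40 C/D, 15 of 17 H/ACA and 4 of 4 spliceosomal RNAs rose, with median changes of 1.67, 1.98 and 4.52. SNR3, an H/ACA RNA, changed most among them, from 5.57, 5.70 and 6.00 at 120 h to 10.60, 10.64 and 11.00 at 340 h, which is 31.9-fold (log2 4.99 ± 0.26 SE, adjusted p = 3.12e-10). The ribosomal controls were higher too, at 6.94 to 9.41 on the arrays of 120 h and 9.89 to 11.75 on those of 340 h. With these controls as a covariate, a setting added after the data were seen, 40 RNAs rose. With replicate 3 of 24, 48 and 120 h left out 56 did, a setting that keeps replicate 2 of 340 h, the array with the lowest controls of its time. The cause of the rise was not tested.

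**Figure D3:**
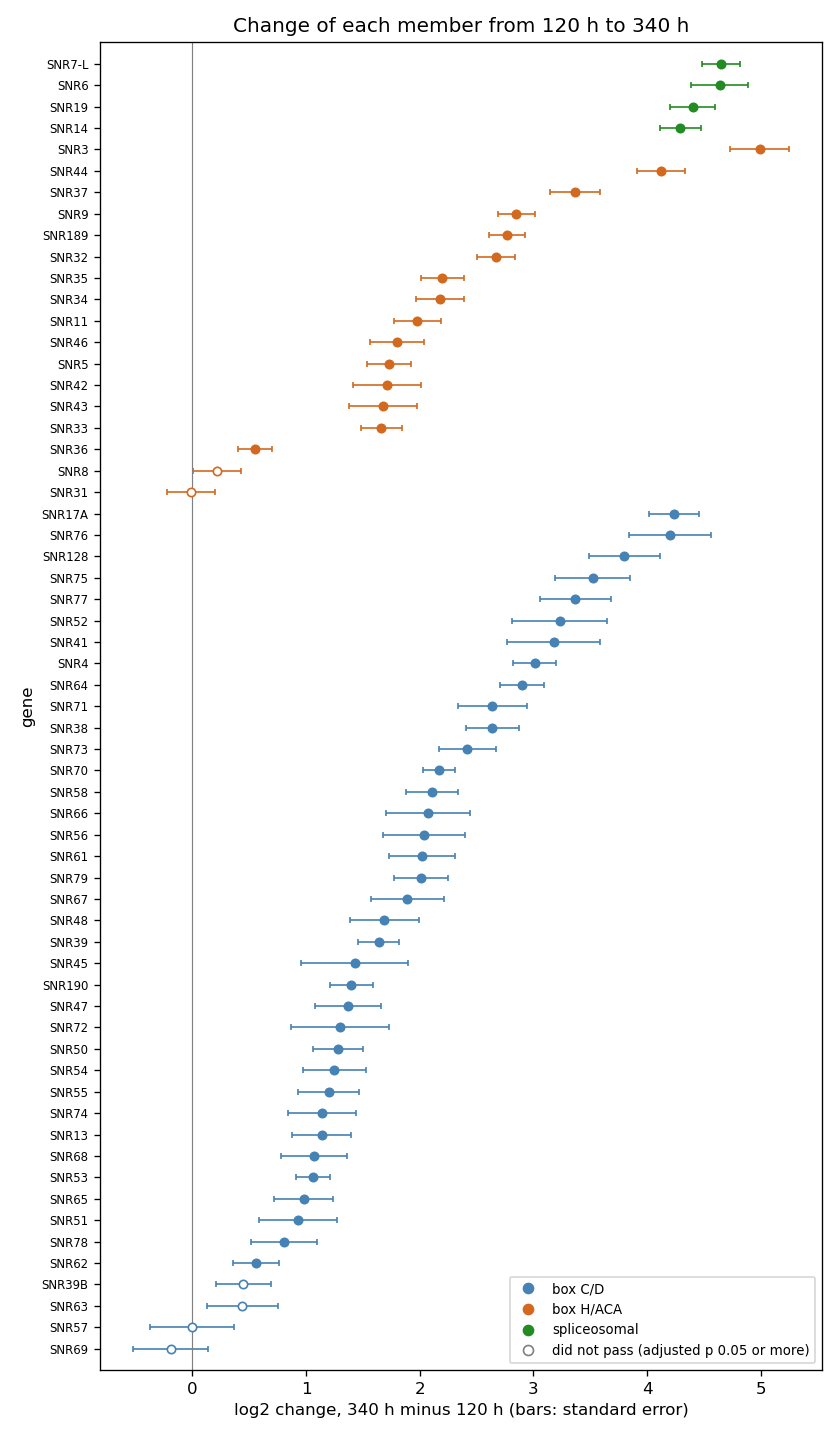
Each point is the log2 change of one of the 61 RNAs from 120 h to 340 h with its standard error, grouped and coloured by class and ordered within it, and open points did not pass. The 4 spliceosomal RNAs lie between 4.29 and 4.65, the H/ACA RNAs between -0.01 and 4.99 and the C/D RNAs between -0.19 and 4.24.

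Against 24 h, a comparison that shares the 340 h arrays with the one just given, 47 of 61 RNAs were higher at 340 h and 1 was lower, against 27.8% and 36.0% of all genes. The median change was 1.57, and -0.13 for all genes. The largest were SNR19 (5.31), SNR45 (5.11), SNR7-L (5.06), SNR14 (4.98) and SNR3 (4.96), and 21 RNAs were at least 4-fold higher, as were 5.27% of all genes. Centring on the 5 reference genes moves the median of all genes by 0.70 here and gave 55 RNAs higher. Without the third arrays of 24, 48 and 120 h 48 were higher, and with the ribosomal controls as a covariate 36 were.

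The 4 spliceosomal RNAs had the highest median rise of the 3 classes from 120 h to 340 h, as given above, though SNR3 alone rose by more than each of them. U1 (SNR19), which recognises the start of an intron, read 6.39, 6.36 and 6.65 at 1 h, 5.95, 6.08 and 5.78 at 12 h and 5.93, 5.69 and 5.80 at 24 h. It then read 4.97, 4.84 and 4.62 at 48 h, 4.31, 4.91 and 4.97 at 60 h, 6.99, 6.82 and 6.35 at 120 h and 11.09, 10.93 and 11.34 at 340 h. U1 thus rose in both late steps, 3.96-fold from 60 h to 120 h and 21.1-fold from 120 h to 340 h, with no overlap between arrays in either (adjusted p = 1.81e-05 and 7.27e-11). Its fall from 1 h to 12 h was small (-0.53 ± 0.19 SE, adjusted p = 0.0215) and no longer passed without replicate 3 of 12 h (-0.45) or of 1 h (-0.44), or when the arrays were centred on their medians (-0.43) or on the reference genes (-0.29).

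U4 (SNR14), which carries U6 into the spliceosome, read 7.93, 7.90 and 8.08 at 1 h, 6.84, 6.66 and 6.98 at 24 h, 5.81, 6.19 and 6.02 at 60 h, 7.69, 7.65 and 7.22 at 120 h and 11.93, 11.56 and 11.94 at 340 h. It rose by 1.51 ± 0.18 SE from 60 h to 120 h and by 4.29 ± 0.18 SE to 340 h. U5 (SNR7-L), which holds the exon ends together, read 6.92, 7.41 and 6.94 at 1 h, 5.82, 6.09 and 5.99 at 24 h, 5.41, 5.90 and 5.58 at 60 h, 6.44, 6.19 and 6.48 at 120 h and 11.25, 10.94 and 10.89 at 340 h. Its probe set is of the shared type, whose probes can also match similar sequences. U5 exists as a long and a short form of the same gene. U5 was the one spliceosomal RNA that did not pass as lower at 60 h than at 24 h (-0.34 ± 0.17 SE, adjusted p = 0.113), and its rise from 60 h to 120 h (0.74) no longer passed without replicate 1 of 60 h (0.63).

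U6 (SNR6), part of the catalytic centre and a transcript of RNA polymerase III, was the only spliceosomal RNA called lower at 120 h than at 24 h. It read 8.20, 8.36 and 8.25 at 1 h, 7.35, 8.13 and 7.65 at 12 h, 7.99, 7.99 and 8.79 at 24 h and 7.21, 6.97 and 7.19 at 48 h. At 60 h it read 5.87, 6.61 and 6.56, at 120 h 6.67, 7.05 and 7.20 and at 340 h 11.34, 12.02 and 11.48. At 120 h U6 was below 24 h by 1.29 log2 units (SE 0.25, adjusted p = 0.000288), where U1 and U4 were above it and U5 was at 0.40 ± 0.17 SE (adjusted p = 0.0536). Whether these changes differ from each other was not tested. By 340 h all 4 were above every array of every earlier time.

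**Figure D4:**
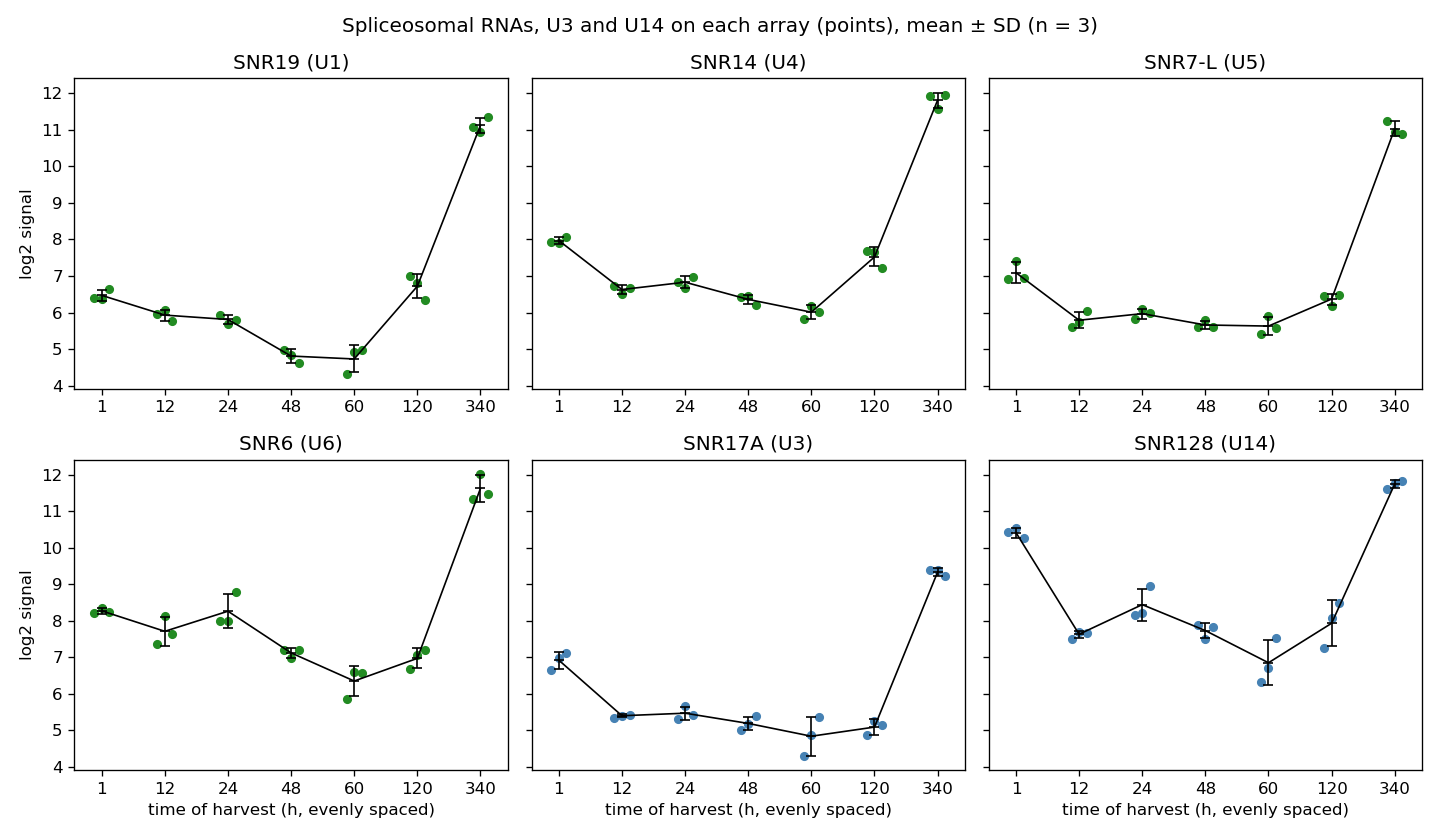
Points are single arrays and lines join the group means with their SD (n = 3) of log2 signal, by time of harvest in hours on an evenly spaced axis, for U1, U4, U5, U6, U3 and U14. In each of the 6 panels the 3 arrays of 340 h lie above all others, and only U1, U4 and U5 have all arrays of 120 h above those of 24 h.

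Among the RNAs that serve cutting of the ribosomal precursor, U3 (SNR17A) stayed low from 12 h to 120 h and was high at 340 h. It read 6.66, 6.99 and 7.11 at 1 h, 5.31, 5.67 and 5.43 at 24 h, 4.30, 4.87 and 5.36 at 60 h, 4.86, 5.26 and 5.16 at 120 h and 9.40, 9.38 and 9.21 at 340 h. The last step was 18.9-fold (log2 4.24 ± 0.22 SE, adjusted p = 2.4e-10). The U3 genes SNR17A and SNR17B are near-identical, and whether this probe set also reads SNR17B was not tested. U3's fall from 24 h to 60 h (-0.63, arrays overlapping) did not pass without replicate 1 of 60 h (-0.35), replicate 2 of 60 h (-0.64) or replicate 2 of 24 h (-0.53). U14 (SNR128) read 10.42, 10.53 and 10.26 at 1 h, 7.51, 7.70 and 7.67 at 12 h, 8.15, 8.22 and 8.95 at 24 h, 6.32, 6.72 and 7.52 at 60 h, 7.25, 8.07 and 8.49 at 120 h and 11.61, 11.77 and 11.83 at 340 h. It fell 6.86-fold from 1 h to 12 h and rose by 3.80 ± 0.31 SE from 120 h to 340 h. Its rise from 60 h to 120 h (1.08, arrays overlapping) did not pass without either replicate 2 (1.02) or replicate 3 (0.81) of 120 h, nor without replicate 1 (0.82) or 2 (1.02) of 60 h.

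SNR190, which is cut from the same precursor as U14, had a low signal on nearly every array. It read 3.64, 3.33 and 4.13 at 1 h and 3.35, 3.55 and 3.31 at 12 h, where the arrays overlapped, and 2.89, 3.12 and 2.90 at 120 h and 3.97, 4.37 and 4.76 at 340 h (1.40 ± 0.19 SE, adjusted p = 1.87e-05). Its signal was below the lower quartile of all probe sets of the array on 20 of 21 arrays, a quartile that lay between 4.19 and 4.44. Signals this low leave little room for a fall to be seen. On all 3 arrays of a time, such low signals were found for 5 of the 61 RNAs at 1 h and 12 of them at 12 h. Their number was 8 at 24 h and 13 at 48 h, reached 19 at 60 h, and was 11 at 120 h and 2 at 340 h, and 34 RNAs were never this low. SNR78 was below it on all 21 arrays. The 4 mouse control probe sets read from 2.79 to 5.97 over the arrays, so a signal above the quartile can still lie within their range.

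The largest precursor carries 7 C/D RNAs, SNR78, SNR77, SNR76, SNR75, SNR74, SNR73 and SNR72, which come from one transcription unit and so are not independent. All 7 rose from 120 h to 340 h. The changes were 4.20 for SNR76, 3.52 for SNR75, 3.37 for SNR77, 2.42 for SNR73, 1.30 for SNR72, 1.14 for SNR74 and 0.81 for SNR78, and no test compared them with each other. SNR78 and SNR74 lay below the array's lower quartile on 21 and 20 of the 21 arrays and SNR73 on 9, so the size of their changes is uncertain. SNR76 read 5.04, 5.20 and 5.82 at 120 h and 9.16, 9.38 and 10.12 at 340 h. SNR77 read 6.85, 7.41 and 8.18 at 120 h and 10.63, 11.03 and 10.89 at 340 h, and for both the 2 times lay far apart. SNR72 read 5.59, 6.47 and 6.95 at 120 h and 6.85, 8.27 and 7.80 at 340 h, with an overlap. At 24 h all 7 were highest on replicate 3, the array with the high ribosomal controls, and SNR76 for one read 6.05, 6.27 and 7.62 there. SNR72's fall from 24 h to 120 h no longer passed without that array (-1.01) or without replicate 1 of 120 h (-1.08).

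In the other shared precursors all but one of the RNAs described here rose in this step. SNR41, SNR70 and SNR51 changed by 3.18, 2.17 and 0.93 from 120 h to 340 h, and all 3 passed. SNR61 (2.02) and SNR55 (1.20) passed, but SNR57, of the same unit, did not (0.00 ± 0.37 SE, adjusted p = 0.995). SNR57 read 3.55, 3.67 and 5.32 at 120 h and 3.68, 4.40 and 4.47 at 340 h, on a probe set named with _i_at. SNR67 (1.89) and SNR53 (1.06) both passed. Among the 20 C/D RNAs with a gene of their own, neither in a shared precursor nor in an intron, 17 rose, with a median of 1.56, against 15.9% of all genes.

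A number of snoRNAs are cut from introns of protein-coding genes, and their levels parted from those of the host mRNAs late in the fermentation. The 4 with a probe set of their own are SNR38 in TEF4, SNR39 in RPL7A, SNR44 in RPS22B and SNR54 in IMD4. From 120 h to 340 h all 4 snoRNAs rose, by 2.64, 1.64, 4.12 and 1.25, while all 4 hosts fell, by 0.59, 1.20, 0.56 and 0.45 on the log2 scale. SNR44 read 7.52, 7.48 and 7.03 at 120 h and 11.45, 11.18 and 11.76 at 340 h, against 9.65, 9.69 and 9.76 and then 8.98, 9.43 and 9.01 for RPS22B, which encodes a protein of the small ribosomal subunit. SNR38 read 5.02, 5.28 and 5.34 and then 7.30, 8.42 and 7.85, against 6.43, 6.08 and 6.61 and then 5.42, 6.20 and 5.74 for TEF4, a translation elongation factor. In each pair the snoRNA's arrays of 340 h lay above those of 120 h, and for RPS22B the host's lay below, while TEF4's overlapped.

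At 60 h both snoRNA and host were below 24 h in all 4 pairs. The snoRNAs were lower by 1.14 to 1.98 on the log2 scale, and the hosts were lower as well, with log2 changes for TEF4 (-1.99), RPL7A (-1.90), IMD4 (-1.09) and RPS22B (-0.82). All 8 known host genes, which also include EFB1, ASC1, RPL7B and NOG2, were lower at 340 h than at 24 h, by 1.12 (EFB1) to 4.47 (RPL7B) on the log2 scale, against 36.0% of all genes. At 340 h SNR38 (1.80) and SNR44 (2.31) were higher than at 24 h, and SNR39 (-0.16) and SNR54 (-0.13) did not pass. Of the hosts EFB1 alone rose from 120 h to 340 h (0.59), and the other 7 fell, which 26.6% of all genes did. On the probe set with the lowest mean, RPL7A changed by 0.24 in that step. Whether the probe sets of intronic snoRNAs also read unspliced host RNA was not tested. No test compared snoRNA with host directly.

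**Figure D5:**
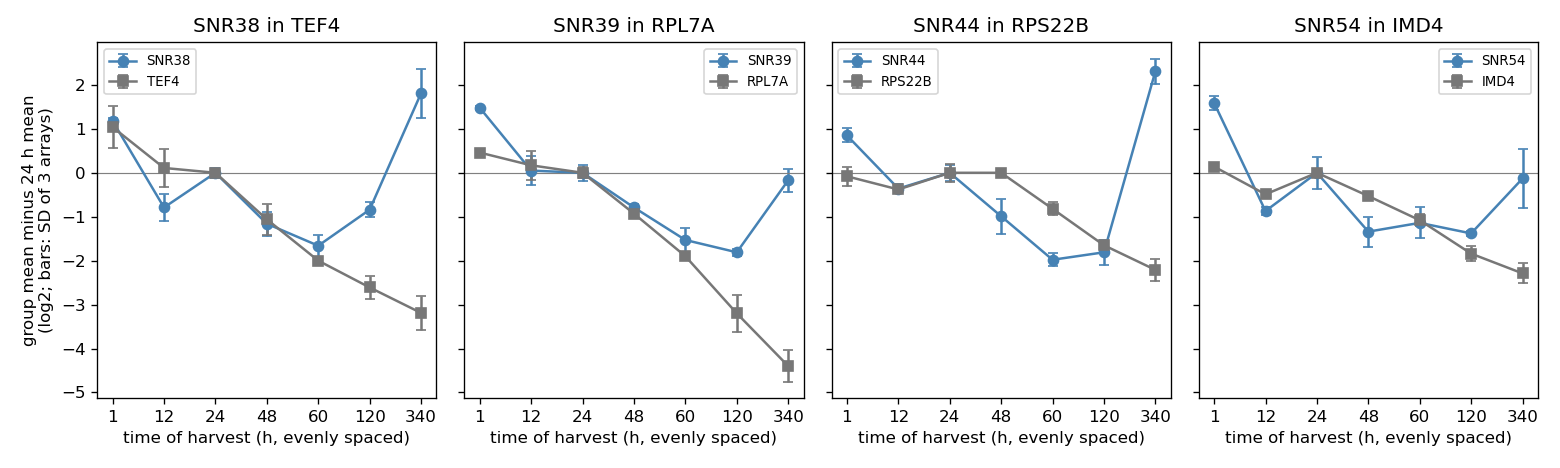
Each panel gives the group mean minus the 24 h mean in log2 units, with the SD of the 3 arrays, for a snoRNA and for the mRNA in whose intron it lies, by time of harvest in hours on an evenly spaced axis. Both are below 24 h at 60 h, and at 340 h the hosts are 2.22 to 4.40 below it while SNR38 and SNR44 are 1.80 and 2.31 above it.

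The H/ACA RNAs covered a wide range at the end. After SNR3 and SNR44, the largest rises from 120 h to 340 h were those of SNR37 (3.37), SNR9 (2.85), SNR189 (2.77) and SNR32 (2.67). SNR189 and SNR32 lay below the array's lower quartile on 13 and 17 of the 21 arrays, so the size of their rises is uncertain. SNR37, a pseudouridylation guide, read 5.45, 5.54 and 5.75 at 120 h and 8.71, 8.94 and 9.21 at 340 h, and SNR9 read 7.71, 7.73 and 7.56 and then 10.67, 10.35 and 10.52. Neither had any overlap. SNR35, SNR34, SNR11, SNR46, SNR5, SNR42, SNR43 and SNR33 rose by 1.66 to 2.20 and SNR36 by 0.55.

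SNR8 and SNR31 were the H/ACA RNAs that did not pass in this step. SNR8 read 8.99, 9.58 and 8.74 at 120 h and 9.50, 9.43 and 9.04 at 340 h (0.22 ± 0.21 SE), and SNR31 read 4.67, 4.58 and 4.68 and then 4.22, 4.56 and 5.10 (-0.01 ± 0.21 SE). Both overlapped between the 2 times. SNR31 passed in neither direction in any step after 12 h, and its only call was the fall from 1 h (-0.66, adjusted p = 0.0153). The C/D RNAs that did not pass were SNR57, SNR63 (0.44), SNR39B (0.45) and SNR69 (-0.19). For SNR39B this depends on the probe set, as its other one had group means of 4.66 at 120 h and 6.13 at 340 h. SNR69 had risen earlier, from 6.14, 6.28 and 6.94 at 60 h to 7.49, 8.58 and 8.15 at 120 h (1.62 ± 0.33 SE, adjusted p = 0.00402), and read 7.48, 8.36 and 7.79 at 340 h.

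SNR39B was the only RNA called lower at 340 h than at 24 h, and its probe sets disagree. On the brighter one, of the shared type, it read 6.22, 6.20 and 6.44 at 24 h and 5.33, 5.28 and 5.98 at 340 h (-0.76 ± 0.24 SE, adjusted p = 0.00899). On its other probe set the group means were 4.96 and 6.13, a rise of 1.17. The direction of SNR39B between these times is therefore not settled.

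The start and the end of the fermentation had the high levels, and the RNAs were split between them. The mean at 340 h was above that at 1 h for 36 of 61 RNAs and for 47.0% of all genes. All 3 arrays of 340 h were above all 3 of 1 h for 27 of the RNAs and below for 17, against 33.0% and 39.0% of all genes. All 4 spliceosomal RNAs were among those above. U1 was at 11.12 ± 0.20 (SD, n = 3) at 340 h and 6.47 ± 0.16 at 1 h, whereas SNR63 read 6.34, 5.43 and 6.82 at 340 h and 8.33 to 8.37 at 1 h. This pair of times was compared by values only.

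The mRNAs of the 7 measured core proteins of snoRNA particles had their lowest group means at 340 h, the time of the highest for 36 of the 61 RNAs, and 31.9% of all genes had their lowest there too. At 340 h all 4 measured C/D core genes (NOP1 -3.07, NOP56 -2.78, NOP58 -1.78, SNU13 -1.32) and all 3 measured H/ACA core genes (CBF5 -2.26, NHP2 -2.26, GAR1 -2.11) were lower than at 24 h, against 36.0% of all genes. NOP1 read 10.13, 10.01 and 9.74 at 24 h, 8.14, 8.04 and 7.84 at 120 h and 7.06, 6.93 and 6.68 at 340 h, with no overlap between any of the 3 times. In the last step, from 120 h, in which 26.6% of all genes fell, NOP1 (-1.12), NOP56 (-1.38), CBF5 (-1.02), NHP2 (-0.71) and GAR1 (-0.61) fell, and NOP58 (-0.52) and SNU13 (-0.47) did not pass. Of 9 genes for assembly of these particles, 3 were lower at 340 h than at 24 h, led by RVB2 (-2.06), and 3 were higher, led by HIT1 (0.72), shares near the 36.0% and 27.8% of all genes. RRP9, a protein of the U3 particle, was at -0.79.

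Genes that form or trim the ends of these RNAs went both ways. Of 17, 5 were higher and 6 lower at 340 h than at 24 h, against the 27.8% and 36.0% of all genes given above. MTR4, a helicase that feeds RNA to the nuclear exosome, read 6.72, 6.85 and 7.02 at 24 h, 7.31, 6.73 and 6.45 at 120 h and 10.94, 10.29 and 10.39 at 340 h (3.71 ± 0.21 SE from 120 h, adjusted p = 5.92e-10). NRD1, which ends transcription of snoRNA genes, read 6.55, 6.18 and 6.66 at 120 h and 9.24, 8.58 and 8.52 at 340 h (2.32 ± 0.20 SE). For both, the arrays of 340 h lay above all earlier ones, with NRD1 on replicate 3 of 1 h (8.45) the nearest. LHP1, the yeast La protein that binds new RNA polymerase III transcripts, was lower at 340 h than at 24 h (-2.00), and so was TGS1 (-1.45), which trimethylates the cap of snRNAs and snoRNAs. Of the 10 core genes of the exosome, the complex that trims and degrades these RNAs from the 3′ end, 7 were lower and none higher at 340 h than at 24 h, with SKI6 at -1.65 and RRP46 at -1.46.

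For the spliceosome, 4 of 7 Sm genes, whose proteins ring the U1, U4 and U5 RNAs, were lower at 340 h than at 24 h, led by SMD1 (-1.91), and 1 was higher, SMX2 (0.62), where 36.0% of all genes were lower and 27.8% higher. Of 7 Lsm genes, whose proteins bind the end of U6, 5 were lower, led by LSM3 (-1.73). Of 20 genes for proteins of single particles, 6 were higher and 5 lower, which is near those shares. MUD1, a protein of the U1 particle, stood apart with 5.62, 5.84 and 5.62 at 24 h, 6.04, 5.57 and 5.33 at 120 h and 9.15, 8.38 and 9.27 at 340 h (3.29 ± 0.22 SE from 120 h, adjusted p = 5.42e-09). PRP8, at the heart of the U5 particle, rose by 1.34 in the same step, and DIB1, also of the tri-snRNP with U4, U5 and U6, fell by 0.95.

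Other stable RNAs, 2 in number, were measured on probe sets of their own, and both rose late. RPR1, the RNA of RNase P, read 8.08, 8.00 and 9.52 at 24 h, 6.42, 6.26 and 6.47 at 60 h, 7.81, 7.47 and 8.08 at 120 h and 11.82, 11.56 and 11.45 at 340 h. It fell by 2.15 from 24 h to 60 h and rose by 3.82 ± 0.29 SE from 120 h to 340 h (adjusted p = 3.89e-08). TLC1, the telomerase RNA, read 5.54, 5.63 and 6.56 at 120 h and 8.07, 7.01 and 7.67 at 340 h (1.67 ± 0.27 SE). No overlap was seen in this step for either. NME1, SCR1 and LSR1 were not analysed here.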

How the data were processed

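RNA of 21 fermentation samples, 3 biological replicates at each of 7 times, was hybridised to Affymetrix yeast arrays with one colour. Per the submitters' processing notes the authors used RMA and the affy package, with no version or parameter given, and their deposited table gives a log2 value for each probe set and array, from 2.01 to 14.15, with array medians of 5.92 to 6.05. The genome build of the array annotation is not given in the sources used here, and no sequence or coordinate is printed.

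The table holds 9335 probe sets. The 60 controls, 328 annotated to several genes and 2443 with no gene were left out, and the brightest of each gene's probe sets stood for it, which gave 5656 genes, 315 of them with several. The 61 RNAs have 63 probe sets, and 5 of the RNAs are on a probe set not named with _at alone. SNR7-L and SNR39B are on the shared type, named with _s_at. SNR47 and SNR57 are on probe sets named with _i_at, and SNR62 is on one named with _r_at. Signal over background sets the precision here, as does the number of arrays.

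Group means were fitted over all genes by lmFit, contrasts.fit and eBayes of limma 3.58.1, run in R 4.3.3, on the 15 arrays from 24 h on, or on all 21 where 1 h or 12 h enters. Tests were two-sided, with Benjamini-Hochberg adjustment over 5656 genes and a threshold of 0.05. "Did not pass" means an adjusted p of 0.05 or more. The fit was run on simulated data with independent normal noise for each gene and array. Those data hold no shift of single arrays and no pairing, so the run cannot show how the fit handles either. Pairing by replicate number was checked by the correlation of deviations from the group means: every pair was above 0.1 for 120 h with 60 h (lowest 0.16) and for 340 h with 120 h (lowest 0.15), and for no other comparison. The block moved the count only in the first of these by over 1.5 times.

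The alternatives were centring on array medians or on 5 reference genes (ALG9, TAF10, TFC1, UBC6, ACT1), other probe set rules, leaving out the lowest 20% of genes, other sets of arrays in the fit, an intensity trend, the replicate block and leaving out single arrays. The members, the gene lists and the comparisons were chosen with earlier results of these data known, so none is independent evidence. Arrays are named individually for the RNAs the text dwells on: the spliceosomal RNAs, U3, U14 and, per comparison, up to 5 RNAs with the largest rises and falls among those that passed without overlap, with others named to show the range. Up to 4 genes of each partner list with the largest changes were named.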

Additional observations from a re-analysis of the deposited data

How the results depend on the processing

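Of the 10 counts of changed RNAs, those for 12 h against 1 h, 60 h against 24 h, 340 h against 24 h, 340 h against 120 h and all 7 times stayed within 1.5 times under every alternative run, with 53 to 56, 36 to 46, 44 to 49, 50 to 55 and 59 to 61 when single arrays were left out. The other 5 moved. Centring on the 5 reference genes gave 0 in place of 5 for 24 h against 12 h, 8 in place of 16 for 48 h against 24 h, 18 in place of 31 for 120 h against 24 h, 5 in place of 9 for 60 h against 48 h and 24 in place of 13 for 120 h against 60 h. For 24 h against 12 h the number was also 3 when centred on array medians, 0 with only those 2 groups in the fit, 3 with the ribosomal controls as a covariate and 3 with the third arrays of 24, 48 and 120 h left out, the last pair of settings added after seeing the data. The replicate block gave 8 in the same comparison and 18 at 60 h against 48 h, where the numbers were not shown to pair the samples, and 20 at 120 h against 60 h, where they were. It moved no other count by over 1.5 times. Leaving out single arrays gave 1 to 3 for 24 h against 12 h, 11 to 17 for 48 h against 24 h, 20 to 31 for 120 h against 24 h, 2 to 9 for 60 h against 48 h and 6 to 17 for 120 h against 60 h. In all, 1371 of 1467 values of the 92 member changes named by rule kept direction and call, 78 no longer passed, 16 passed in addition and 2 turned, both of SNR39B at 340 h against 24 h (0.21 as the mean of its probe sets and 1.17 on the dimmer one). Among other genes SEN1 turned at 120 h against 24 h (-0.03 as the mean and -0.33 on the dimmer probe set), PRP31 at that time (0.10 on reference genes), SMX2 at 340 h against 24 h (-0.06 with the covariate), IMD4 (0.15 as the mean and 0.85 on the dimmer) and TEF4 (0.23 on the dimmer) at 60 h against 48 h, RPL7A at 120 h against 60 h (0.35 on the dimmer) and at 340 h against 120 h (0.24 on the dimmer), and NOG2 in the last comparison (0.00 with the covariate). The cause of these changes was not tested. Signals near background limit what can be seen at 12, 24, 48, 60 and 120 h. On all 3 arrays of these times, in that order, 12, 8, 13, 19 and 11 of the 61 RNAs lay below the array's lower quartile.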
